A study of Mus musculus with 24 samples.

Results

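Kidneys injured by muscle breakdown were compared between mice given an oligonucleotide against the microRNA miR-22 and mice given a mismatched oligonucleotide. The comparison covered 14 of the 24 arrays of the study, chosen by their titles: 7 labelled rhabdomyolysis with anti-miR-22 and 7 labelled rhabdomyolysis with mock. The other 10 arrays came from sham kidneys, 5 with each oligonucleotide. They are used to show where the injured kidney differed, and they enter the shared estimate of spread behind every SE and p-value. The animals were 10 weeks old males of C57BL/6N, an inbred mouse strain. Either oligonucleotide was injected under the skin at 20 mg/kg, and 24 h later the rhabdomyolysis groups received 50% glycerol into the calf muscle, which breaks down muscle and loads the kidney with heme proteins. Sham animals passed through every other step. All 4 groups were without water for 23 h and were given the analgesic carprofen at 5 mg/kg, so neither oligonucleotide was compared with an animal that received none. Kidney tissue was collected a further 24 h later. Glycerol is described at a mild and a severe dose and the labels do not say which one these kidneys received. Separate animals are not stated for the arrays, and the p-values cover the spread between samples, which may be partly technical.

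MicroRNAs guide Argonaute proteins to messenger RNAs that match their seed, bases 2 to 8, and lower the translation and the amount of those messages. Short antisense oligonucleotides bind a microRNA and block it, which relieves its targets. miR-22 is abundant in many adult tissues, heart and kidney among them, and reported targets include regulators of histone deacetylation, nuclear receptor signalling and growth. The mature mouse miR-22-3p lies at chr11:75463772-75463793 on the plus strand (GRCm38.p6, sequence from RefSeq). It is shown with its seed in capitals, followed by both injected oligonucleotides, 5′ to 3′, with the bases at which they differ in capitals.
mmu-miR-22-3p: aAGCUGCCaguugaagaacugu
anti-miR-22: ctTcAacTggcAgct
mock: ctAcTacAggcTgct
The oligonucleotides are 15 bases long, and anti-miR-22 can pair with all of bases 2 to 16 of miR-22-3p. Counting from 1 at the 5′ end and writing the base of anti-miR-22 before that of mock, the changes are T3A, A5T, T8A and A12T. These positions face bases 14, 12, 9 and 5 of miR-22-3p, so that 11 bases of the mock can still pair, 6 of them in the 7-base seed. Everything described here is therefore a difference between 2 oligonucleotides, and the arrays do not measure miR-22 itself.

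Expression was measured in total RNA on Clariom S mouse arrays, which read 1 colour and carry a set of probes for each transcript. Values are on a log2 scale, on which a difference of 1 is a 2-fold change. Array medians lay between 5.752 and 5.857, and no fold is given where a group mean was below them, because background was not measured separately. Each of 22205 probes was tested with limma over all 24 arrays, and a probe is called where its Benjamini-Hochberg adjusted p is below 0.05. Differences are anti-miR-22 minus mock, given with their standard error (SE). The labelled tissue was borne out by its defining genes: on the 14 injured arrays, Umod, the uromodulin gene of the thick ascending limb, lay between 17.26 and 17.82 and Lrp2, the endocytic receptor megalin of the proximal tubule, between 14.80 and 16.19. Over all 22205 probes, pairs of mock arrays correlated at 0.9867 to 0.9928, pairs of anti-miR-22 arrays at 0.9853 to 0.9928, and pairs across the groups at 0.9781 to 0.9872.

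**Figure D1:**
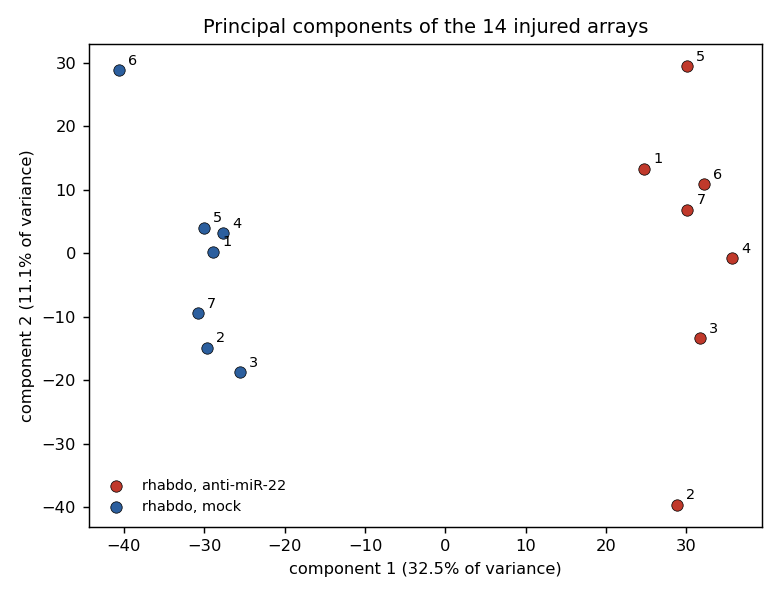
The 14 injured arrays on the first and the second principal component of all probes, in component units, with replicate numbers beside the points. The first component holds 32.5% of the variance and places mock between -40.57 and -25.58 and anti-miR-22 between 24.72 and 35.66; mock 6 and anti-miR-22 array 2 lie at the ends of the second component for their groups.

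The first component of the injured arrays separated the oligonucleotides without overlap. Mock 6 and anti-miR-22 array 2 stood apart from their groups on the second component, which held 11.1% of the variance, and had the lowest weights when limma estimated the reliability of every array (0.489 and 0.619, where the other 22 lay between 0.848 and 1.304). Counts of members of a gene list are therefore given without these arrays where they change by over 1.5 times.

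The oligonucleotides differed at 4360 of 22205 probes in the injured kidney (19.6%), 2106 higher with anti-miR-22 (9.48%) and 2254 lower (10.2%). Most called differences were moderate, with a median size of 0.64 on the log2 scale. A called difference of at least 1 was found at 335 probes higher and 394 lower, and of at least 2 at 28 higher and 21 lower. All 7 values of one group lay above all 7 of the other at 1636 probes (7.37%). The median difference over all probes was 0.02, and the lower and upper quartiles were -0.17 and 0.20. Without mock 6 and anti-miR-22 array 2 the counts were 2057 higher and 2110 lower.

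Sham kidneys, which share no array with this comparison, gave 1590 calls (7.16%), 854 higher (3.85%) and 736 lower (3.31%). Of the injured calls 1218 were also called in sham with the same sign, 630 higher and 588 lower, which is 27.9% of the injured calls and 76.6% of the sham calls. Over all injured calls the sham difference had the same sign at 85.2%, against 56.4% of the probes that were not called. Where both were called with the same sign, the difference was larger in the injured kidney at 807 (66.3%), with a median ratio of 1.17. Differences in injured and sham kidney correlated over the 22205 probes at Pearson r = 0.60 and Spearman rho = 0.43, as a description across probes of 1 fit. Only 3 probes were called with opposite signs, and they are named because they are so few. They were Tbc1d15, a GTPase-activating protein gene (0.47 injured, -0.64 sham), 1 of the probes of Plppr2, a lipid phosphatase-related gene (-0.50 and 0.61; its brighter probe was called in neither), and a probe without a gene symbol (0.56 and -0.73). The Tbc1d15 call in injured kidney was lost without anti-miR-22 array 2 (0.39, adjusted p = 0.0549).

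**Figure D2:**
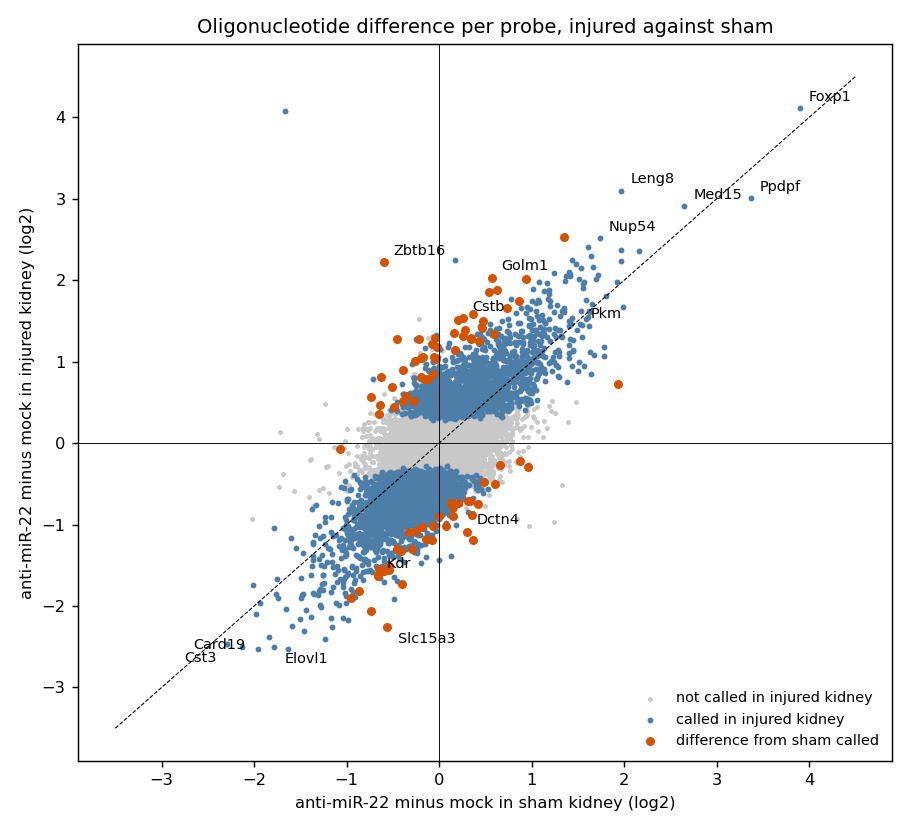
Each of 22205 probes by its anti-miR-22 minus mock difference in sham kidney (x axis, log2) and in injured kidney (y axis, log2); blue probes are called in injured kidney, orange ones differ between injured and sham, and the dashed line marks equal differences. Foxp1, Med15 and Cst3 lie near the dashed line, while Zbtb16, Golm1, Cstb and Slc15a3 lie away from it; the isolated point at the upper left is a probe with no gene symbol whose injured difference of 4.08 has an SE of 1.46.

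The widest difference was that of Foxp1, a forkhead transcriptional repressor and one of the reported miR-22 targets. Its lowest, median and highest values were 10.59, 10.98 and 11.30 with anti-miR-22 and 6.15, 6.77 and 7.51 with mock. The groups were far apart, and the anti-miR-22 group was 17.3-fold higher (4.11 ± 0.18, SE, n = 7 against 7, limma adjusted p = 6.53e-16). In sham kidney the values were 11.37, 11.38, 11.29, 11.67 and 11.54 with anti-miR-22 and 7.76, 6.82, 7.81, 7.68 and 7.69 with mock, so the separation was there without glycerol (3.90). Glycerol with either oligonucleotide went with slightly lower Foxp1 (-0.73 with mock and -0.52 with anti-miR-22; these contrasts share arrays with the comparison). A probe without a gene symbol, with a difference of 4.08, had values from 2.81 to 16.18 within the anti-miR-22 group and from 5.95 to 11.73 within mock (adjusted p = 0.0477), so its groups overlapped widely.

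Several of the 15 highest genes whose groups did not overlap have products that act in transcription or bind RNA, which is a description of names and not a test. Leng8, a nuclear protein gene linked to RNA export, ran from 9.95 through 10.46 to 10.76 with anti-miR-22 and from 6.99 through 7.14 to 7.98 with mock, an 8.58-fold difference (3.10 ± 0.22, adjusted p = 1.15e-11). Med15, a tail subunit of the Mediator complex that links activators to RNA polymerase, ran from 11.17 through 11.74 to 12.52 against 8.36 through 8.96 to 9.34, or 7.52-fold (2.91 ± 0.17). Every anti-miR-22 array was above every mock array in both genes, as the choice of the 15 required. Med12, of the kinase module of the same complex, was 5.28-fold higher (2.4 ± 0.18). Nup54, a channel protein of the nuclear pore, had a median of 11.94 against 9.49 and was 5.74-fold higher (2.52 ± 0.13, adjusted p = 2.59e-14). Pum2, an RNA-binding protein that represses messages bearing Pumilio elements, had a median of 13.68 against 11.52 and was 5.14-fold higher (2.36 ± 0.12). Ewsr1, an RNA-binding protein of the FET family, had a median of 12.88 against 10.55 and was 4.92-fold higher (2.30 ± 0.13). The absence of overlap in these 7 genes with a known nuclear or RNA-binding product follows from that choice. All 7 were also higher with anti-miR-22 in sham kidney, by 1.61 (Med12) to 3.90 (Foxp1).

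Other genes of the highest 15, of like size, have different roles. Ppdpf, named for a role in pancreas development, was 8.03-fold higher (3.00 ± 0.18), with medians of 10.45 and 7.47. Ppic, the secretory-pathway prolyl isomerase cyclophilin C, was 5.78-fold higher (2.53 ± 0.16), with medians of 12.28 and 9.71. Cox20, an assembly factor of cytochrome oxidase, was 5.16-fold higher (2.37 ± 0.17). The adaptor-associated gene Ap1ar was 4.74-fold higher, the ubiquitin ligase subunit gene Fbxo6 4.70-fold, the zinc transporter gene Slc39a7, which releases zinc from the endoplasmic reticulum, 4.59-fold and the death-associated protein gene Dap 4.47-fold. All 7 of these had groups that did not overlap, which the choice of the 15 required. In sham kidney all 7 were called in the same direction (1.35 to 3.37). Zbtb16, a zinc finger repressor, was 4.68-fold higher and is taken up with the genes that differed from sham.

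The lowest 15 genes whose groups did not overlap had mixed roles, with secreted, lipid, lysosomal, ribosomal, RNA-related and nuclear transport genes among them. Cst3 encodes cystatin C, an inhibitor of lysosomal proteases that is filtered and used as a marker of filtration. Its values ran from 11.37 through 11.68 to 12.04 with anti-miR-22 and from 13.77 through 14.22 to 14.43 with mock. The groups were separate, and Cst3 was 5.53-fold lower with anti-miR-22 (-2.47 ± 0.13, adjusted p = 3.11e-14). In sham kidney it was 12.25, 12.70, 12.26, 12.21 and 12.33 against 14.54, 14.76, 14.39, 14.66 and 14.84, so the messenger RNA of this filtration marker differed by oligonucleotide with and without injury. Card19, a mitochondrial CARD-domain protein gene, ran from 7.12 through 7.63 to 8.50 against 9.84 through 10.35 to 10.55 (5.77-fold lower). Elovl1, which elongates very long chain fatty acids, ran from 12.12 through 12.32 to 12.66 against 14.66 through 14.89 to 15.13 (5.68-fold lower, -2.51 ± 0.13). Plpp2, a lipid phosphate phosphatase gene, ran from 10.14 through 10.60 to 10.78 against 12.74 through 13.11 to 13.32 (5.65-fold lower). No value of any of these 4 genes crossed into the other group, which the choice of the lowest 15 required.

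Among the rest of the lowest 15, the ubiquitin-like splicing gene Ubl5 was 5.22-fold lower, the sterol enzyme gene Msmo1 4.94-fold, the lysosomal histidine transporter gene Slc15a3 4.78-fold and the lysosomal sulfatase gene Galns 4.5-fold. The peroxisomal lipid carrier gene Scp2 was 4.46-fold lower, the messenger RNA export cofactor Nxt2 4.43-fold, Herpud2 4.40-fold, the small ribosomal subunit gene Rps25 4.29-fold and the nuclear import receptor gene Ipo8 4.12-fold. Zswim1 (-2.24 ± 0.15) and Rnf31, a subunit of the linear ubiquitin ligase (-2.15 ± 0.18), were lower too, but their anti-miR-22 means of 5.41 and 5.75 were below the array medians. The 15 lowest genes were also lower in sham kidney, with differences from -0.56 (Slc15a3, not called there, adjusted p = 0.0867) to -2.29.

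**Figure D3:**
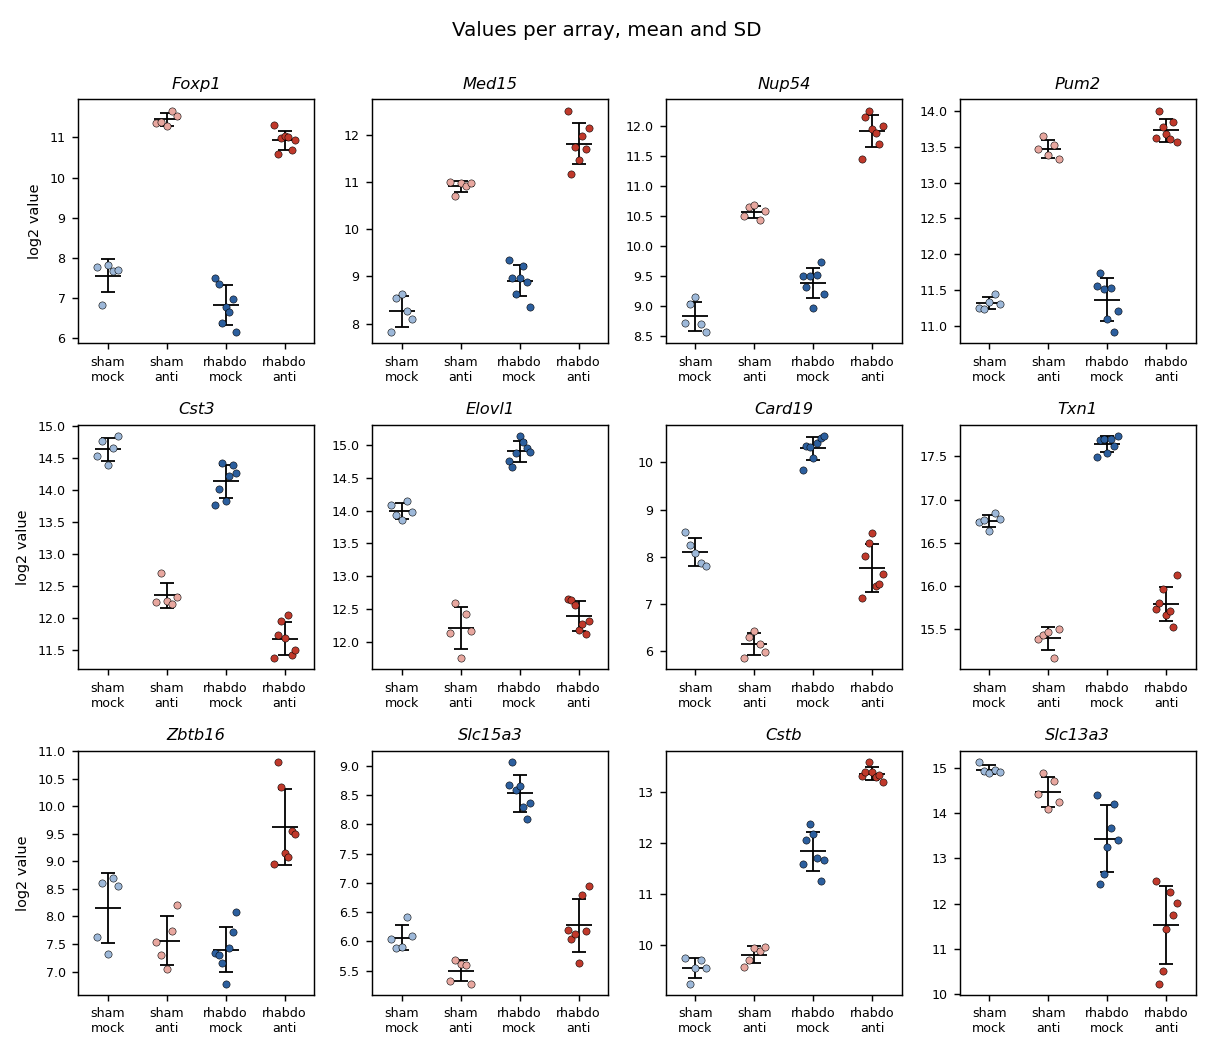
Values of 12 genes on all 24 arrays (log2, y axis; each panel has its own scale), by group on the x axis, with bars for the mean and SD. Foxp1, Med15, Nup54 and Pum2 are high with anti-miR-22 and Cst3, Elovl1, Card19 and Txn1 are low with it in both sham and injured kidney, whereas Zbtb16 and Cstb overlap in sham and part in injured kidney; for Slc13a3 the difference between injured and sham was not called.

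Gene lists are described by how many measured members were called, to be read against 9.48% higher and 10.2% lower over all probes. The lists were chosen with earlier results of these data known, so their counts describe the data and are not independent tests. The Mediator and nuclear pore lists include Med15, Med12 and Nup54, which were already named above among the highest genes. Mediator subunits had 11 of 31 higher and 4 lower, with a median difference of 0.06. The members therefore split: besides Med15 and Med12, the kinase subunit gene Cdk8 was 3.67-fold higher (1.87 ± 0.19) and Med19 2.67-fold (1.42 ± 0.14), while Med23 was 2.02-fold lower (-1.01 ± 0.13) and Med14, the backbone subunit, 1.54-fold lower (-0.62 ± 0.13). The mean level of the 31 members lay between 9.18 and 9.36 on the anti-miR-22 arrays and between 8.81 and 8.93 on the mock arrays. Nuclear pore genes split likewise, with 10 of 24 higher and 4 lower (median -0.03): Nup54 and Nupl2 (1.19 ± 0.18) were higher, and Nup210 (-1.03 ± 0.16) and Nup133 (-0.93 ± 0.15) lower.

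Chromatin coactivators and splicing factors, lists also chosen with earlier results known, had more members called higher than lower. Coactivators and remodellers had 13 of 25 higher and 4 lower (median 0.45). Ncoa6, a nuclear receptor coactivator, ran from 11.42 to 12.55 with anti-miR-22 and from 9.74 to 10.73 with mock, 3.75-fold higher without overlap. Arid1b, a subunit of the BAF remodelling complex, was 2.39-fold higher, whereas Smarcc1, a core subunit of the same complex, was 1.61-fold lower and Chd8 was lower from a dim level (-0.61 ± 0.13). Splicing factors and heterogeneous nuclear ribonucleoproteins had 14 of 32 higher, 1 lower and 17 not called (median 0.29), the lower 1 being Rbm25 at -0.39, whose call ended without the mock 6 and anti-miR-22 2 arrays and in 10 alternatives in all (adjusted p up to 0.0875), as it did without mock 1, 2 or 7 or anti-miR-22 array 2, 3, 6 or 7. Hnrnpd, which binds AU-rich messages, had a median of 11.31 against 9.18 and was 4.22-fold higher, and Hnrnpa2b1 had 16.50 against 15.44 and was 2.34-fold higher. In sham kidney the splicing list had 2 members higher and 1 lower, and the coactivators had 7 higher and 0 lower. The difference between injured and sham kidney was called for 0 members of either list.

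The list of genes whose human counterparts carry glutamine tracts in disease had 4 of 8 members higher and 1 lower (median 0.60). Tbp, the TATA-binding protein, was 3.93-fold higher (1.97 ± 0.15) and Atxn2, an RNA-binding protein of stress granules, 3.92-fold (1.97 ± 0.17), while Atxn1 was 1.68-fold lower. Of 3 measured Foxp genes 2 were higher, Foxp1 and Foxp2 (1.13 ± 0.18, with a dim mock mean of 3.53). Of 4 Pumilio and FET genes 3 were higher and 0 lower, Pum2, Ewsr1 and Taf15 (0.41, picked after its value was seen, with an adjusted p up to 0.084 in 7 alternatives, including those without mock 1, 3 or 4 or anti-miR-22 array 2, 3 or 5). These small lists were drawn up after the genes that lead them were known, so their counts restate those genes.

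Genes reported as miR-22 targets, taken from textbook and published knowledge, were called in both directions. Of 33 measured, 10 were higher (30.3%), 6 lower (18.2%) and 17 not called, with a median of 0.06. Higher beside Foxp1 were Srf, the serum response factor (medians 9.37 and 8.16, 2.54-fold), Hdac4, a class IIa histone deacetylase (7.13 and 6.14, 1.89-fold), Ncoa1, a nuclear receptor coactivator (8.48 and 7.54, 1.85-fold), and Erbb3, a neuregulin receptor (9.13 and 8.38, 1.67-fold). Srf, Hdac4 and Ncoa1 did not overlap between the groups, and Erbb3 did. Smaller differences were called for the bone morphogenetic protein gene Bmp6 (0.62), the MYC partner Max (0.53), Purb (0.48), Sp1 (0.36, not called with the replicate number as a block, adjusted p = 0.0647) and 1 further gene. Lower were Ppara, the fatty acid receptor that drives lipid oxidation, which ran from 8.0 through 8.83 to 9.24 against 10.08 through 10.35 to 10.98 (3.18-fold lower), Hif1a, the oxygen-regulated transcription factor (12.88 against 13.98, 2.04-fold), Arpc5 of the actin-nucleating complex (1.70-fold), the arrestin gene Arrb1 (1.53-fold), the tubulin deacetylase gene Hdac6 (1.46-fold) and 1 further gene. Without mock 6 and anti-miR-22 array 2, 8 were higher and 4 lower: Bmp6 (adjusted p = 0.0527), Purb (0.0525) and Hdac6 (0.0662) were among those no longer called. Leaving out mock 6 alone was enough for Purb (0.0589) and Hdac6 (0.0523), and leaving out anti-miR-22 array 5 for Purb (0.0595).

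Genes of the microRNA pathway itself were called in both directions: 7 of 17 were lower, 1 higher and 9 not called (median -0.18). The helicase gene Mov10, an Argonaute partner, ran from 6.4 through 7.11 to 7.63 against 8.02 through 8.37 to 9.09 and was 2.67-fold lower without overlap. Cnot1, the scaffold of the deadenylase complex that microRNAs recruit, was 2.39-fold lower, and Ago2, the slicing Argonaute, was 1.52-fold lower (9.75 against 10.21). Ago2 was picked after its value was seen. Tnrc6c, of the GW182 family that joins Argonaute to the deadenylase, was the member that was higher (2.16-fold). In sham kidney 3 were lower and 1 higher, and the difference between injured and sham kidney was called for 0 members.

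Classical markers of tubular injury were not called between the oligonucleotides. Havcr1, shed by damaged proximal tubule, ran from 18.72 through 18.77 to 19.08 with anti-miR-22 and from 17.93 through 18.77 to 19.13 with mock (0.13 ± 0.66, adjusted p = 0.935). The SE is wide because 1 sham mock array, mock 1, had a Havcr1 value of 14.59 where the other 4 lay between 7.00 and 7.74. Fitted on the 14 injured arrays alone the limma adjusted p of Havcr1 was 0.650. The same sham array was also high in Lcn2 (13.70, the others 7.75 to 8.91) and Krt20 (6.62, the others 2.97 to 4.06). The SE of Lcn2 is therefore wide as well. Lcn2, the gene of NGAL, ran from 18.62 to 18.94 against 18.28 to 18.90 (0.08 ± 0.50), Timp1, an inhibitor of matrix proteases, from 11.35 to 13.17 against 11.14 to 12.70 (0.26 ± 0.30), and Hmox1, the heme oxygenase that degrades heme, from 15.73 to 16.46 against 15.68 to 16.40 (-0.06 ± 0.18). Umod differed by 0.12 ± 0.11. Egf, made in distal segments, differed by 0.10 ± 0.13, but at a dim level around the array medians (5.44 to 6.00 against 5.17 to 5.97). In sham kidney, where Egf was bright, it ran from 14.90 to 15.28 with anti-miR-22 and from 14.29 to 14.71 with mock. The injured groups overlapped in all 6 genes. Values of Havcr1 and Lcn2 lay near the top of the range of the arrays, whose highest value was 19.924.

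Other injury markers did differ. Of 21 measured, 3 were higher and 5 lower, and the mean level of the list lay between 13.02 and 13.29 with anti-miR-22 and between 12.81 and 13.39 with mock. Sprr2f, a cornified envelope protein gene, ran from 10.00 through 11.41 to 13.05 against 8.10 through 9.37 to 10.01, 4.76-fold higher with the ranges touching. Sox9, a transcription factor of regenerating tubule, was 2.19-fold higher (1.13 ± 0.31), with 1 anti-miR-22 array at 10.21 and the other 6 between 12.17 and 12.78. Fgb, the fibrinogen beta chain, was 2.71-fold lower, the acute-phase gene Lrg1 2.62-fold (not called without the mock 6 and anti-miR-22 2 arrays, -0.90, adjusted p = 0.0678) and the epithelial keratin Krt20 2.33-fold (adjusted p = 0.023, and up to 0.0648 in 5 alternatives, including those without mock 4 or 7 or anti-miR-22 array 5 or 6). Cdkn1a, the cell cycle inhibitor p21, differed by 0.56 ± 0.23 (adjusted p = 0.0835) and was called on the 14 injured arrays alone (0.0118).

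Of 24 proximal tubule genes measured, 13 were lower (54.2%), 2 higher and 9 not called, with a median of -0.74, and in sham kidney 0 were called in either direction (median -0.04). Slc13a3, the dicarboxylate transporter of the basolateral membrane, ran from 10.23 through 11.75 to 12.49 with anti-miR-22 and from 12.43 through 13.41 to 14.41 with mock, 3.76-fold lower with a small overlap. Slc7a13, an amino acid transporter gene of the late proximal tubule, ran from 8.26 through 8.98 to 9.92 against 9.77 through 10.68 to 11.50 (2.68-fold lower). Lrp2 was 1.78-fold lower without overlap (14.80 to 15.34 against 15.57 to 16.19) and was picked after its value was seen. Acsm2, an acyl-CoA synthetase gene, was the firmest member in the other direction (17.79 against 17.09, 1.63-fold higher, no overlap), and Gatm was higher by 0.77 ± 0.26 (adjusted p = 0.034, but up to 0.105 in 8 alternatives, including those without mock 2, 3, 4 or 7 or anti-miR-22 array 5 or 6). Glycerol with mock lowered 23 of the 24 and raised 0, in a contrast that shares the mock arrays and called 34.4% of all probes. The mean level of the list was 15.90 to 16.31 on the sham arrays with mock, 16.07 to 16.22 with anti-miR-22, 13.06 to 13.84 after glycerol with mock and 12.54 to 13.14 after glycerol with anti-miR-22. In whole kidney, fewer proximal tubule cells and less RNA of these genes per cell cannot be told apart.

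Metabolic genes of this segment were also called lower more often than higher. Gluconeogenesis genes had 6 of 10 lower and 0 higher (median -0.66), or 1 higher without the mock 6 and anti-miR-22 2 arrays. Pcx, pyruvate carboxylase, ran from 9.56 through 10.11 to 10.49 against 11.88 through 12.01 to 12.55, 4.11-fold lower, and was lower in sham kidney too (-1.65). Pck1, the rate-setting carboxykinase, ran from 9.35 through 10.10 to 10.38 against 10.51 through 11.47 to 11.90, 2.64-fold lower. Neither overlapped. Organic ion and drug transporters had 7 of 21 lower and 2 higher (median -0.37): the organic anion transporter gene Slc22a8 was 2.17-fold lower, whereas Abcg2, an efflux pump of urate and drugs, was 2.00-fold higher (16.05 against 14.93, no overlap) and the carnitine-related transporter gene Slc22a4 1.39-fold higher. Fatty acid oxidation genes had 9 of 23 lower and 2 higher (median -0.37), or 1 higher without the mock 6 and anti-miR-22 2 arrays. Hadhb, a subunit of the trifunctional protein of beta oxidation, ran from 10.94 through 11.12 to 11.49 against 12.70 through 12.98 to 13.46 and was 3.75-fold lower. Ppara, which governs this pathway, was lower as well.

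Lipid synthesis genes had more members called lower than higher. Fatty acid synthesis and elongation had 7 of 16 lower and 0 higher (median -0.15), led by Elovl1 and followed by the desaturase gene Fads2 (1.72-fold lower). Cholesterol synthesis had 5 of 18 lower and 1 higher (median -0.14), or 2 higher without the mock 6 and anti-miR-22 2 arrays. Msmo1 and the hydroxymethylglutaryl-CoA synthase gene Hmgcs1 (13.34 against 14.44, 2.16-fold) were lower without overlap, while Srebf2, the transcription factor that drives sterol genes, was 1.99-fold higher with overlap (13.05 against 11.86). Glycolysis and hypoxia genes had 4 of 24 higher and 5 lower. The pyruvate kinase gene Pkm ran from 14.32 through 14.56 to 14.71 against 12.75 through 13.08 to 13.47 (2.74-fold higher), and the oxygen sensor Egln1 was 1.68-fold higher, whereas the hexokinase gene Hk1 was 2.18-fold lower.

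**Figure D4:**
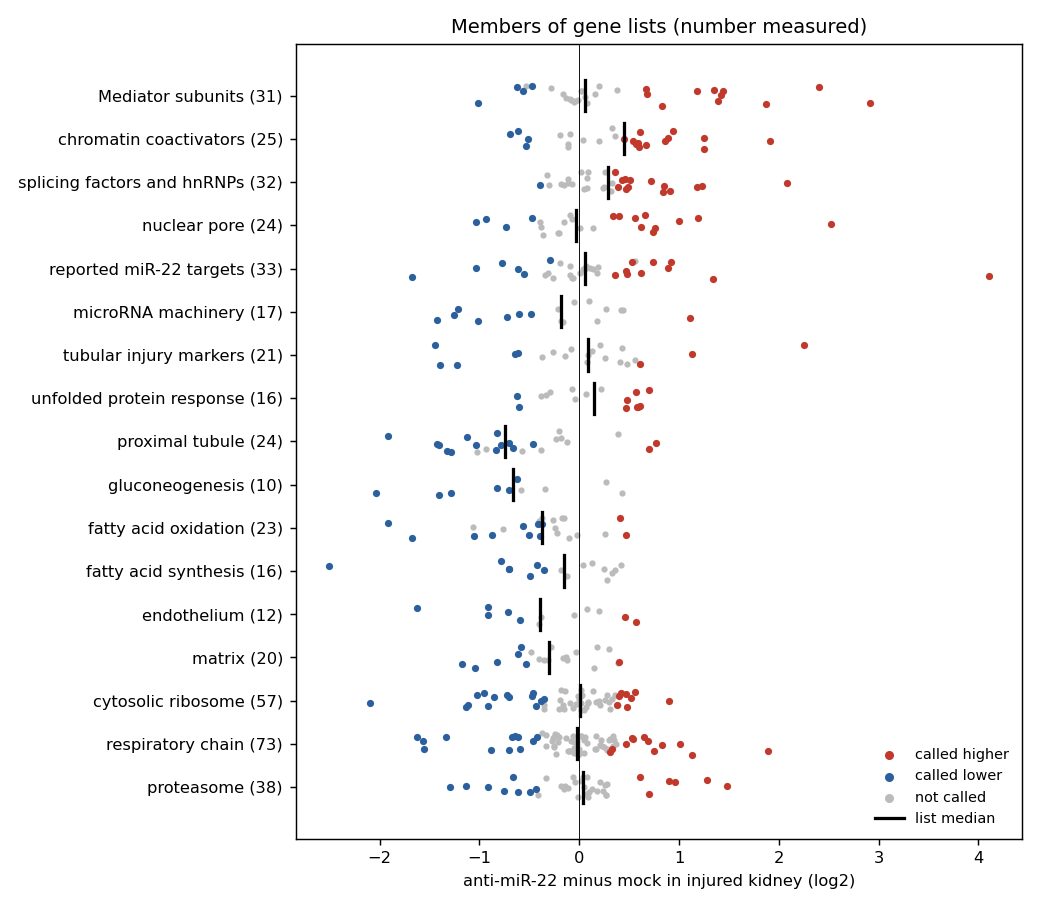
Members of 17 gene lists by their anti-miR-22 minus mock difference in injured kidney (log2, x axis), with the number measured in parentheses; red and blue points are called higher and lower, grey ones are not called, the vertical scatter within a list is arbitrary and the black bars are list medians. The proximal tubule and gluconeogenesis medians lie at -0.74 and -0.66, the coactivator and splicing medians at 0.45 and 0.29, and the ribosome, respiratory chain and proteasome lists have members far out on both sides of a median near 0.

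Markers of other nephron segments were called in both directions, apart from those of podocytes. Thick limb and distal tubule genes had 3 of 12 lower and 1 higher. Slc12a3, the thiazide-sensitive cotransporter of the distal convoluted tubule, ran from 13.23 through 13.83 to 14.05 against 14.41 through 14.99 to 15.33 (2.35-fold lower, no overlap), and Wnk1, a kinase that regulates it, was 1.90-fold higher (14.18 against 13.18). Slc12a3 was the only lower member without the mock 6 and anti-miR-22 2 arrays, where 1 was called lower. Collecting duct genes had 3 of 15 higher and 2 lower, among them Hsd11b2, which protects the mineralocorticoid receptor from cortisol (2.00-fold lower), and the proton pump subunit gene Atp6v1g3 (1.48-fold higher). Podocyte genes had 2 of 8 lower and 0 higher, with Synpo 1.46-fold lower.

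Among endothelial and matrix genes more members were called lower than higher, and many were not called. Endothelium had 5 of 12 lower and 2 higher (median -0.39). Kdr, the main VEGF receptor of endothelium, ran from 9.04 through 9.46 to 10.01 against 10.63 through 11.01 to 11.36 and was 3.07-fold lower (-1.62 ± 0.14, adjusted p = 4.33e-10). Pecam1, an adhesion molecule (9.48 against 10.34), and Plvap, of fenestral diaphragms (11.63 against 12.47), were each 1.88-fold lower; Pecam1 was picked after its value was seen. No value of these 3 genes overlapped, whereas Robo4 was 1.48-fold higher with overlap. The mean endothelial level was 9.62 to 9.85 with anti-miR-22 and 9.94 to 10.23 with mock. Matrix genes had 6 of 20 lower, 1 higher and 13 not called (median -0.30, against 0.02 in sham kidney). The difference between injured and sham kidney was called for 0 of the matrix genes. Fibronectin, encoded by Fn1, was 2.25-fold lower (8.01 against 9.24) and the matricellular gene Ccn2 2.06-fold lower (12.23 against 13.09). Stroma markers had 2 of 10 lower, with Col1a2 1.58-fold lower, and 1 higher, the smooth muscle gene Tagln (1.76-fold).

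Few immune cell markers were called. Macrophage markers had 2 of 14 lower and 0 higher, among them Csf1r, the receptor of macrophage growth factor (7.86 against 8.33, -0.56 ± 0.17), and 0 were called without the mock 6 and anti-miR-22 2 arrays (Csf1r adjusted p = 0.0531). Neutrophil markers had 2 of 11 higher, S100a8 (0.82 ± 0.25) and Retnlg (0.71 ± 0.23), both dim in the mock group at 4.43 and 4.77, and 0 without those arrays (adjusted p = 0.0509 and 0.0906). Leaving out anti-miR-22 array 2 or 3 alone ended both calls (adjusted p = 0.0558 and 0.0561 for S100a8, 0.0842 and 0.0579 for Retnlg), and leaving out mock array 3 or 5 ended that of Retnlg (0.0860 and 0.0558). Of 12 T and NK cell markers 0 were called, of 7 B cell markers 1 was higher, of 3 red cell markers 1 was lower, and of 10 adrenal markers 0 were called. Skeletal muscle markers had 1 of 12 higher and adipose markers 1 of 8 higher and 1 lower; without the mock 6 and anti-miR-22 2 arrays, 2 muscle markers were higher and 0 adipose markers lower. The mean levels overlapped between the groups for each of these lists, for example macrophage 6.76 to 7.32 against 6.88 to 7.42 and neutrophil 4.38 to 5.02 against 4.28 to 4.67. Besides neutrophil markers, 4 lists had mean levels below the array medians on every injured array. These were T and NK cell (4.17 to 4.66), B cell (4.27 to 4.62), skeletal muscle (4.19 to 4.53) and adrenal (3.62 to 3.89). At so dim a level few calls cannot show that the groups were alike. The part of any listed cell type in the differences of other genes was not tested.

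**Figure D5:**
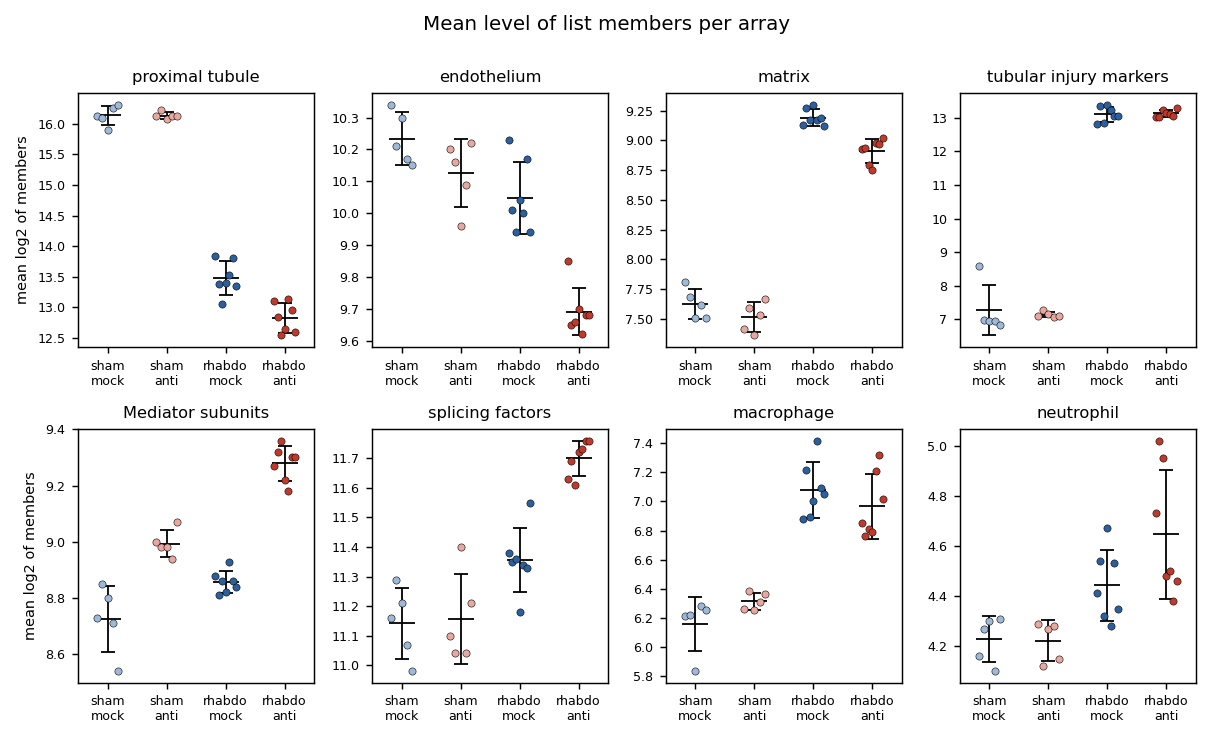
Mean log2 value of the measured members of 8 gene lists on each array (y axis, own scale per panel) by group (x axis), with bars for the mean and SD. Endothelium and matrix lie lower and Mediator subunits and splicing factors higher on all 7 injured anti-miR-22 arrays than on the 7 injured mock arrays, while injury markers, macrophage and neutrophil levels overlap; 1 sham mock array has a high level of injury markers.

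Inflammatory genes had 5 of 30 lower and 1 higher. The interferon-induced chemokine gene Cxcl10 was 2.47-fold lower (6.62 against 7.74) with overlap, and the chemokine gene Ccl5 was lower from a dim level (-0.90 ± 0.22). Interferon-stimulated genes had 3 of 27 lower and 1 higher: the RNA sensor Ifih1 was 1.84-fold lower (8.50 against 9.28) and the dim Isg15 higher (0.62 ± 0.15). Without the mock 6 and anti-miR-22 2 arrays 1 interferon gene was lower and 3 were higher. Complement and coagulation had 4 of 20 higher and 3 lower, with C4b 1.88-fold higher and the anaphylatoxin receptor gene C3ar1 lower (-0.80 ± 0.16, from a mock mean of 5.93 to a dim 5.13).

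Stress responses were mixed within each pathway. Unfolded protein and integrated stress response genes had 7 of 16 higher and 2 lower (median 0.15). The higher ones included the transcription factors Atf4 (12.55 against 11.91, 1.63-fold) and Atf3 (8.96 against 8.30, 1.52-fold), and the lower ones were Hspa5, the chaperone BiP (16.89 against 17.52, 1.52-fold), and Xbp1 (14.94 against 15.56, 1.54-fold). The call of Atf4 ended without the mock 6 and anti-miR-22 2 arrays (0.55, adjusted p = 0.0614). Heat shock genes had 2 of 10 higher and 2 lower: the small heat shock gene Hspb8 (1.76 ± 0.26, from a dim 4.93) and its partner Bag3 (1.91-fold) were higher and the mitochondrial chaperonin gene Hspe1 1.45-fold lower; without the mock 6 and anti-miR-22 2 arrays 1 was lower. NRF2 antioxidant genes had 2 of 19 higher and 3 lower. Txn1, thioredoxin, ran from 15.53 through 15.73 to 16.13 against 17.49 through 17.69 to 17.73, 3.60-fold lower with a wide gap, and the oxidative stress gene Osgin1 was 2.52-fold lower. Gclm, which makes glutathione, was 1.92-fold higher (16.69 against 15.74, no overlap) and Nqo1 1.33-fold.

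Heme and iron genes had 3 of 20 lower and 1 higher, with transferrin, encoded by Trf, 1.92-fold lower, the iron-responsive RNA-binding gene Ireb2 1.60-fold lower and the ferroxidase ceruloplasmin, encoded by Cp, 1.54-fold higher. Immediate early genes had 5 of 20 higher and 2 lower. Fosl1, an AP-1 subunit, ran from 9.70 through 10.52 to 11.31 against 8.91 through 9.29 to 9.47 (2.45-fold higher, no overlap), Klf6 was 1.59-fold higher and Btg2 1.65-fold lower. Of 14 p53 targets 1 was higher and 1 lower: Mdm2, the ubiquitin ligase of p53, had a median of 11.56 against 10.01 and was 2.71-fold higher, and Btg2 was the lower one. Clock genes had 5 of 18 higher and 1 lower, the activators Rora (1.71-fold) and Npas2 (1.69-fold) among the higher and Cry2 the lower (1.5-fold). Cell cycle genes had 2 of 23 higher (1 without the mock 6 and anti-miR-22 2 arrays) and 2 lower, with the thymidylate synthase gene Tyms 2.21-fold lower (9.14 against 10.47), Ccne1 1.54-fold lower and the replication helicase gene Mcm2 1.52-fold higher.

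Large complexes split into higher and lower members, with list medians near 0. Cytosolic ribosomal proteins had 8 of 57 higher and 14 lower (median 0.01): Rps25 (11.29 against 13.34) and Rpl9 (13.28 against 14.27, 2.19-fold) were lower without overlap, and Rplp1 (17.24 against 16.43, 1.86-fold) and Rpl5 (1.47-fold) higher. Mitochondrial ribosomal proteins had 19 of 76 higher and 13 lower (median 0.06), from Mrpl45 (3.25-fold higher) and Mrpl38 (2.82-fold higher) to Mrps10 (3.65-fold lower) and Mrpl30 (3.04-fold lower). The respiratory chain had 12 of 73 higher and 12 lower (median -0.02). Ndufa4, a cytochrome oxidase subunit, ran from 15.92 through 16.42 to 16.61 against 13.87 through 14.44 to 15.08 (3.71-fold higher) and the complex I gene Ndufs6 was 2.19-fold higher, whereas the ATP synthase gene Atp5g2 was 3.07-fold lower (12.90 against 14.45) and the complex III gene Uqcr10 2.95-fold lower. Proteasome subunits had 6 of 38 higher and 8 lower, with Psmb2 (2.79-fold) and Psma7 (2.43-fold) higher and Psma1 (2.45-fold) and Psmd11 (2.19-fold) lower. Of these 16 genes, picked for the size of their difference, all but Rpl5 had groups that did not overlap. Members called without overlap were 1 higher and 9 lower of 57 cytosolic and 9 and 6 of 76 mitochondrial ribosomal proteins. They were 7 and 5 of 73 respiratory chain genes and 4 and 5 of 38 proteasome subunits. Over all probes 7.37% did not overlap.

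Lysosomal genes split too. Of 19 lysosomal proteases, cystatins and related genes, 3 were higher and 4 lower (median 0.02). Grn, progranulin, ran from 14.02 through 14.46 to 15.09 against 16.14 through 16.43 to 16.66 and was 3.75-fold lower, next to Cst3. Cstb, the intracellular cystatin B, ran from 13.19 through 13.34 to 13.59 against 11.26 through 11.71 to 12.38 and was 2.89-fold higher, and the calcium channel gene Mcoln1 was 1.69-fold higher. The 2 cystatins thus differed in opposite directions, and neither overlapped. Genes with Zfp numbers, mostly zinc finger repressors, had 44 of 330 higher (13.3%) and 26 lower (7.88%).

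The difference between oligonucleotides was itself tested for a difference between injured and sham kidney. It was called at 85 probes (0.383%), 46 more positive in injured kidney (0.207%) and 39 more negative (0.176%), and at 2746 by an unadjusted p below 0.05. The count ranged from 28 to 267 over the alternatives, so single genes are given that kept the call in all 32. Of the 85, just the 20 genes named in the text were followed through the alternatives. Others may have kept the call as well. Of the 85, 80 were also called within the injured kidney, where 60 were not called in sham.

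Zbtb16 had the largest such difference of the genes named here. In injured kidney it ran from 8.95 through 9.50 to 10.80 with anti-miR-22 and from 6.78 through 7.34 to 8.08 with mock, without overlap. In sham kidney it was 7.53, 7.30, 7.04, 7.74 and 8.20 with anti-miR-22 and 7.62, 8.60, 7.32, 8.69 and 8.56 with mock, which overlapped and leaned the other way (-0.59, adjusted p = 0.327). The difference of differences was 2.82, limma adjusted p = 0.00135. Slc15a3 was 5.33, 5.68, 5.62, 5.60 and 5.28 in sham kidney with anti-miR-22 and 6.04, 5.88, 5.90, 6.41 and 6.09 with mock, where the anti-miR-22 values lay below every array median and the mock values just above them, so that the sham difference was read at a dim level. After glycerol the mock group ran from 8.09 to 9.06 and the anti-miR-22 group from 5.64 to 6.94 (difference -1.70, adjusted p = 0.00191).

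A further 6 of the genes named here kept the call in all alternatives. Golm1, a Golgi membrane protein gene, ran from 9.34 to 9.83 against 7.06 to 8.13 in injured kidney, and was 6.50, 6.63, 6.10, 5.39 and 6.25 against 5.81, 5.60, 5.50, 5.51 and 5.60 in sham kidney (difference 1.46, adjusted p = 0.00851). Cstb was 9.55, 9.70, 9.93, 9.87 and 9.96 against 9.73, 9.23, 9.53, 9.70 and 9.53 in sham kidney, where the groups overlapped (difference 1.27, adjusted p = 0.00639). Dctn4, a dynactin subunit gene, ran from 8.19 to 8.64 against 8.93 to 9.92 in injured kidney and was slightly higher in sham kidney (0.30), a difference of -1.39 (adjusted p = 0.0013). Ttpa, the vitamin E transfer protein, differed by 1.28 in injured and by -0.46 in sham kidney (difference 1.74, adjusted p = 0.021), the kinase gene Pim3 by 1.27 and -0.22 (1.5, 0.021) and the complement-response gene Rgcc by 0.81 and -0.63 (1.44, 0.0154). Of these, Ttpa and Rgcc overlapped between the injured groups and Golm1, Dctn4, Cstb and Pim3 did not. The sham means of Golm1 with mock (5.60) and of Rgcc with anti-miR-22 (5.61) were below the array medians. Their sham differences were therefore read at a dim level.

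Beside Cstb, other genes named here for a list or their size were called for this difference and lost the call in some alternatives. Kdr differed by -1.62 in injured and by -0.66 in sham kidney (difference -0.96, adjusted p = 0.0436, up to 0.0878), Hadhb by -1.91 and -0.95 (-0.96, 0.0274, up to 0.0542), and Ddc, the amino acid decarboxylase that makes dopamine in proximal tubule, by -1.73 and -0.41 (-1.32, 0.0248, up to 0.0504). Ppic (1.18, 0.0339, up to 0.0725), Fosl1 (1.34, 0.0338, up to 0.0655), Psma7 (0.94, 0.0378, up to 0.0707), Cdk8 (1.25, 0.0494, up to 0.102) and Med19 (0.95, 0.038, up to 0.0841) were more positive in injured kidney, and Ifih1 (-1.23, 0.0248, up to 0.0531) more negative. Fosl1 was read at a low level in sham kidney, with means of 5.77 with anti-miR-22 and 5.82 with mock. Plch1, a phospholipase gene (-1.56, 0.0443, up to 0.0877), and the vomeronasal receptor gene Vmn1r20 (-1.26, 0.034, up to 0.0709) were named by the rule of size. Plch1 was dim with anti-miR-22 in injured kidney (5.50) and in both sham groups (5.62 with anti-miR-22 and 5.25 with mock). Vmn1r20 was dim in both injured groups (3.77 with anti-miR-22 and 4.07 with mock) and not called there (-0.30, limma adjusted p = 0.272). Its call rested on sham kidney, with means of 9.27 and 8.31 (0.96, limma adjusted p = 0.00265). Cdk8, Med19 and Tbc1d15 were named after their values were seen. Proximal tubule genes, of which 13 were lower in injured and 0 in sham kidney, held 0 members for which the difference itself was called, so a change by injury was not shown for them.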

How the data were processed

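Total RNA of halved mouse kidneys was hybridised to 24 single-colour Clariom S arrays. The values are log2 expression per probe in the authors' deposited value table, and per the submitters' processing notes RMA and Partek 6.4 were used, with roles and settings not given in the sources used here. RMA corrects background and equalises arrays, which compresses differences among dim probes. Of 22206 lines, 1 was dropped because it held values for 5 arrays alone. 19572 probes had 1 gene symbol, 2633 had none and 0 several; all 19572 Entrez identifiers matched a current table, and a gene with several probes is named by the brightest.

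Group means of all 24 arrays were fitted with limma 3.58.1 (lmFit, eBayes) in R 4.3.3, which shares 1 estimate of spread per probe among the 4 groups, and p-values were adjusted by Benjamini-Hochberg over 22205 probes. On simulated arrays with 22205 probes for the injured comparison, 100 probes were shifted by 0.5 and 100 by 1. Of these shifts 19% and 91% were recovered, 0 with the wrong sign, and 6 probes without a shift were called. Far fewer probes were shifted than were called in the data (19.6%). The adjustment was therefore stricter in the simulation, and its shares do not give the share of differences found in the data. No read depth exists for arrays; their number limits the precision. Named genes are a subset of the 15 highest and 15 lowest calls without overlap, up to 2 called members per list and direction, the 5 largest differences from sham in each direction, and a few injury genes and miR-22 targets; exceptions are said to be picked after their values were seen. Comparison, gene lists and rule were chosen with earlier results of these data known. Alternatives were separate fits, moderation, normalization, dim probes, array weights, the replicate number as a block, and leaving out arrays. Same-numbered injured arrays were checked for pairing, and their deviations correlated at -0.019 to 0.102. These weak values did not show pairing by number but cannot exclude it, and the main fit treats the arrays as unpaired.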

Additional observations from a re-analysis of the deposited data

Results flagged for a closer look

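Of 364 gene and group combinations tested, 24 had 1 array far from the others (chance alone gives about 1 in 20), and 7 of these arrays were rhabdomyolysis anti-miR-22 array 2. On that array Ppdpf was 9.20 (other 6 arrays 10.34 to 10.81), Fbxo6 8.39 (9.55 to 9.71), Galns 11.03 (9.25 to 9.92), Bag3 8.64 (9.55 to 10.20), Srebf2 12.58 (12.97 to 13.15), Mcoln1 13.17 (11.78 to 12.28) and Ncoa6 11.42 (12.07 to 12.55). In other arrays of that group, Ppic was 11.57 (12.19 to 12.46) and Rpl9 12.74 (13.19 to 13.42) on array 1, Psmb2 14.30 (13.24 to 13.59) on array 4, Sox9 10.21 (12.17 to 12.78) and Ago2 9.15 (9.66 to 9.90) on array 5 and Hdac6 10.55 (9.75 to 9.98) on array 7.

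Among the rhabdomyolysis mock arrays, Galns was 11.63 (11.95 to 12.08), Pck1 10.51 (11.31 to 11.90) and Rpl9 14.73 (14.17 to 14.38) on array 3. Zswim1 was 7.07 (7.58 to 7.85), Vmn1r20 3.5 (4.05 to 4.37) and Tnrc6c 8.08 (8.59 to 8.90) on array 7, Cry2 was 8.67 (7.91 to 8.23) on array 1 and Hmgcs1 14.08 (14.42 to 14.62) on array 2. In sham kidney, Havcr1 was 14.59 on mock 1 (7.00 to 7.74), Foxp1 6.82 on mock 2 (7.68 to 7.81) and Cst3 12.70 on anti-miR-22 array 2 (12.21 to 12.33). The combinations tested did not take in every sham group of the named genes. Lcn2, for one, was 13.70 on sham mock 1 (7.75 to 8.91) and is not among those counted.

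For 20 named genes the anti-miR-22 minus mock difference was itself called different between injured and sham kidney. It was more positive in injured kidney for Zbtb16 (2.82), Ttpa (1.74), Pim3 (1.5), Golm1 (1.46), Rgcc (1.44), Fosl1 (1.34), Cstb (1.27), Cdk8 (1.25), Ppic (1.18), Tbc1d15 (1.11), Med19 (0.95) and Psma7 (0.94). It was more negative for Slc15a3 (-1.70), Plch1 (-1.56), Dctn4 (-1.39), Ddc (-1.32), Vmn1r20 (-1.26), Ifih1 (-1.23), Kdr (-0.96) and Hadhb (-0.96).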

How the results depend on the processing

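Counts of calls in injured kidney stayed within 1.5 times under every alternative run, from 1922 to 2199 higher and from 2080 to 2428 lower, and so did the calls shared with sham in sign, from 940 to 1491. With the replicate number as a block, these counts were 1982, 2175 and 940, and the difference from sham was called at 89 probes. The labels give the 7 injured pairs nothing in common but a number. Each mock array correlated best with its own number in 3 of 7, which cannot decide whether they are paired. The number of probes called for the difference between injured and sham (85) depended on the setting. It was 173 with a trend and robust moderation, 136 after a repeated quantile normalization, 267 without dim probes (11822 tested) and 141 with array weights. The cause was not tested for any of these settings. Leaving out 1 array gave 28 to 138. It moved by over 1.5 times without sham mock 2 (51), 3 (34), 4 (56) or 5 (54), sham anti-miR-22 1 (30), 2 (45), 4 (40) or 5 (55), rhabdomyolysis mock 3 (138) or 5 (39), or rhabdomyolysis anti-miR-22 4 (28) or 6 (49). Fits without sham mock 1, or without rhabdomyolysis mock 6 and anti-miR-22 2 together (added after seeing the data), gave 67 and 81. Among gene list counts of 3 or more in injured kidney, leaving out 1 rhabdomyolysis array moved some by over 1.5 times: ribosomal proteins higher from 8 to 5 (mock 1), glycolysis genes lower from 5 to 3 (mock 6), Mediator subunits lower from 4 to 2 (mock 6 or 7), thick limb and distal tubule markers lower from 3 to 1 (mock 6 or anti-miR-22 3), collecting duct markers higher from 3 to 1 (mock 7), interferon genes lower from 3 to 5 (anti-miR-22 5), and complement genes higher from 4 to 1 or 2 (mock 2, 3, 5 or 7, anti-miR-22 2, 6 or 7). A planned description of amino acid runs in the named proteins was not run.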
